A study of Mus musculus with 2 samples.

Results

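Foxn1, Pax1, Pax9, Six4, Eya1 and Fezf2 are transcription factors or cofactors that set the fate of thymic epithelium. These 6 genes, of 23571 measured, were chosen by name for that role, with earlier results of these data known, and all 6 passed the minimum of 50 reads over both libraries. Each gene is given by the RefSeq transcript with the most reads, and Eya1 alone had a second transcript in the count table. RNA was sequenced from medullary thymic epithelial cells with high MHC class II (mTEChi), sorted as CD45-negative cells with low or intermediate Ly51 from 1 lentigenic B6 mouse. This mouse carried hairpin RNAs against Clp1 and the green reporter ZsGreen under the doxycycline-inducible promoter TRE3G, together with the TetOn3G transactivator under the EF1 promoter. It received 2 g of doxycycline per kg of food for 2 weeks, starting at 3 weeks of age. Its GFP+ cells gave the Clp1 knockdown library and its GFP- cells gave the Ctr library, so both came from the same animal and were exposed to doxycycline. Only the expression of the hairpins and reporter separates the groups by label, and the knockdown rests on a single animal. With 1 library per group no p-value was computed, and the 95% intervals cover counting error of reads only.

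Foxn1 is the forkhead factor without which a functional thymic epithelium does not form, and it drives genes by which the thymus attracts and instructs T cell precursors. Eya1 is a phosphatase and coactivator that binds homeodomain proteins, and with the paired-box factors Pax1 and Pax9 it acts in the pharyngeal pouches from which the thymus and the parathyroid arise. Six4 is a homeodomain partner of Eya proteins. Fezf2 is a zinc finger factor of mTECs that switches on antigens of peripheral tissues, many of them independent of Aire.

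Poly(A) hexamers of Fezf2 and Eya1 are shown first, since these are the members with results on the 3' end. They describe the last exons, and no count below is tied to a hexamer of Eya1. Clp1 is a subunit of cleavage factor II, which acts when a pre-mRNA is cut at a poly(A) site. Fezf2 was the only member with an annotated poly(A) site inside its last exon, and Eya1 was the only member whose last exon and earlier exons were at least 2-fold apart in their ratios. The sequences were read from the NCBIM37 (mm9) genome on the minus strand, where both genes lie, and capitals mark the hexamer AATAAA or its variant ATTAAA. For Fezf2, the last hexamer before the annotated site (chr14:13174597-13174626) and the last before the transcript end (chr14:13174418-13174447) are shown, and an ATTAAA at base 337 of the 867-base last exon is not. The 3 AATAAA hexamers of the Eya1 last exon lie at chr1:14160381-14160410, chr1:14159765-14159794 and chr1:14159039-14159068.
Fezf2 proximal signal: tatgactcAATAAAtagaaccattagtgcg
Fezf2 distal signal: gctggtatATTAAAgcacccaggagcatgg
Eya1 hexamer 1: aaataatcAATAAAaggccttggcctgaca
Eya1 hexamer 2: attttattAATAAAattaactggagcctag
Eya1 hexamer 3: tttaaattAATAAActtgatttgtgcagta
The Fezf2 proximal hexamer starts 10 bases before the annotated site, and the distal one 34 bases before the end of the transcript. In Eya1 the hexamers start at bases 676, 1292 and 2018 of the 2043-base last exon (GENCODE vM1), and the last of them is 26 bases from its end. Such hexamers are common. AATAAA or ATTAAA on the transcript strand occurs in the last 50 bases of 65.9% of 22611 annotated transcripts. The last 2043 bases hold 3 or more AATAAA in 21.7% of the 12591 transcripts of at least that length.

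The Clp1 knockdown library held 37524730 reads over RefSeq transcripts and the Ctr library 28464803. Clp1 itself had 812 reads in knockdown and 1573 in Ctr cells, a level of 39.7% of Ctr after scaling. Of 16831 genes with at least 50 reads, 19.1% were at least 2-fold higher in knockdown cells with an interval excluding equality, and 18.6% were at least 2-fold lower, together 37.7%. With the libraries scaled on 15 pan-epithelial genes, the median of all genes shifted by -0.41 on the log2 scale and the counts became 2181 higher and 4707 lower, against 3212 and 3131. Both libraries held abundant mTEChi markers: Aire, the regulator that defines mature mTECs, had 8264 reads in knockdown and 7462 in Ctr cells, and H2-Aa, an MHC class II chain, had 167275 and 148783. After scaling, their log2 ratios (knockdown over Ctr) were -0.23 and -0.21. Of the 10 mature mTEC markers listed, 1 rose (Cd40, 1.26) and 1 fell (Cd86, -1.01), with a median of -0.07. As lists, markers of the following other cells differed more. All 8 endothelial markers were called lower in knockdown cells, their scaled reads summing to 2134 in knockdown and 21590 in Ctr cells, and so were 6 of 9 fibroblast and mural markers (10563 and 19947), 5 of 8 thymocyte markers (3107 and 11625), 3 of 4 B cell markers (593 and 1602) and 3 of 3 measured red cell markers (2070 and 61885). The part of these cells in the results below was not tested.

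Against the 19.1% of all genes called higher, 2 of the 6 fate factors rose, Eya1 and Six4, and none fell. The members spread widely, with log2 ratios (knockdown over Ctr) between -0.91 for Pax1 and 2.16 for Eya1 and a median of 0.86, against a median of 0.0037 and quartiles of -0.70 and 0.71 over all genes tested. In bulk RNA, fewer cells of a type and less RNA per cell cannot be told apart. By RPKM, in which reads are set per kilobase of transcript and per unit of library depth, the order was Fezf2, Foxn1, Pax1, Pax9, Eya1 and Six4 in knockdown cells, and Fezf2, Foxn1, Pax1, Pax9, Six4 and Eya1 in Ctr cells. With 1 library each, the order of neighbours has no replicate check.

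**Figure D1:**
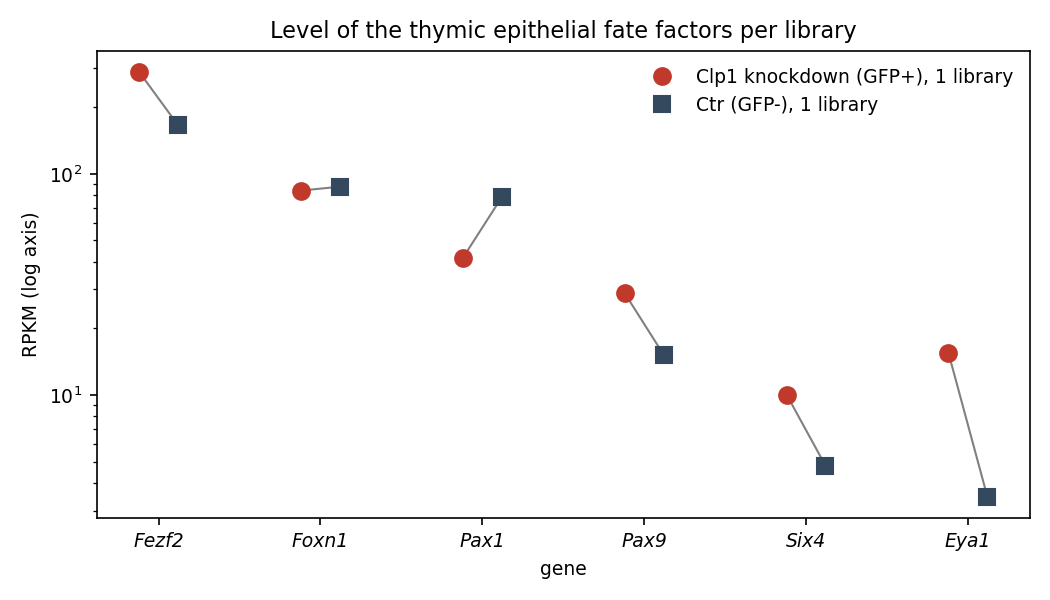
Level of each fate factor in RPKM (log axis) in the Clp1 knockdown library (red circles) and the Ctr library (dark squares), 1 library each, joined by a line per gene. Foxn1 lies nearly level at 84.0 and 87.4 RPKM, Pax1 slopes up toward Ctr, and the other 4 slope down, most steeply Eya1 at 15.5 and 3.47 RPKM.

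Foxn1 (NM_008238; mm9 chr11:78171079-78200060, minus strand, 9 exons) hardly differed. It had 5754 reads in knockdown and 4600 in Ctr cells, or 84.0 and 87.4 RPKM. The log2 ratio was -0.06 (-0.11 to 0.00066), so equality lay within the counting interval. It stood above 94.0% of genes in knockdown and 94.2% in Ctr cells by RPKM. The sign of this small difference depended on the processing, and was positive (0.32) once the trend of the ratios with GC content was subtracted.

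The paired-box factors Pax1 and Pax9, close relatives that act together in the pharyngeal pouches, had ratios of opposite sign. Pax1 (NM_008780; chr2:147187661-147219031, plus strand, 5 exons) had 3011 reads in knockdown and 4346 in Ctr cells, or 41.7 and 78.4 RPKM. Its log2 ratio of -0.91 (-0.98 to -0.84) was short of the 2-fold rule, which it passed with pan-epithelial scaling (-1.32). Pax9 (NM_011041; chr12:57792754-57813809, plus strand, 4 exons) had 2029 reads in knockdown and 823 in Ctr cells, or 28.8 and 15.2 RPKM. Its log2 ratio of 0.92 (0.81 to 1.04) was likewise under 2-fold, at 1.90-fold. Each passed the rule on one portion of the transcript, Pax9 on its last exon (1.07) and Pax1 without its last exon (-1.02). The intervals of both excluded equality and did not overlap each other. As a result Pax1 exceeded Pax9 1.45-fold by RPKM in knockdown cells, against 5.15-fold in Ctr cells. This ratio within a library does not depend on how the libraries were scaled, but its change depends on the GC trend. With that trend subtracted, the log2 ratios lay closer together, at -0.54 for Pax1 and 0.61 for Pax9.

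Eya1 and Six4, whose proteins can bind each other, both rose. Six4 (NM_011382; chr12:74201246-74214401, minus strand, 3 exons) had 1529 reads in knockdown and 561 in Ctr cells, or 10.03 and 4.79 RPKM. This was a 2.10-fold rise, with a log2 ratio of 1.07 (0.93 to 1.21), just past the rule, and the call was lost with pan-epithelial scaling (0.66) or with the GC trend subtracted (0.83). Eya1 (NM_010164; chr1:14159035-14300281, minus strand, 18 exons) had 1834 reads in knockdown and 316 in Ctr cells, or 15.5 and 3.47 RPKM. The rise of 4.46-fold (3.96 to 5.05) was the largest of the 6, and 8.02% of all genes tested had a ratio as high. Its second transcript, NM_001252192, shares most of these reads and had 1774 in knockdown and 297 in Ctr cells. In Eya1 the size of the rise depended on the part of the transcript, as described below.

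Fezf2 (NM_080433; chr14:13174406-13178379, minus strand, 5 exons) was the most abundant member. It had 18198 reads in knockdown and 8030 in Ctr cells, or 289 and 166 RPKM, above 98.8% and 97.3% of genes. The log2 ratio of 0.80 (0.76 to 0.84), 1.74-fold, missed the 2-fold rule. It passed the rule only with the GC trend subtracted (1.01). The ratio of Fezf2 to Foxn1 by RPKM was 3.44 in knockdown and 1.90 in Ctr cells. No other annotated gene overlaps the counted exons of any of the 6 members in GENCODE vM1. The counted last exons of Foxn1 (783 bases) and Pax9 (1578 bases) were shorter than the annotated ones (1494 and 3170 bases), so reads further downstream were not in their counts.

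The second count table divides a transcript into its 5'UTR, its earlier exons, the upstream part of its last exon and, where a proximal poly(A) site is annotated, the distal 3'UTR beyond that site. Eya1 stood out among the members. Its last exon had 1133 reads in knockdown and 53 in Ctr cells, a log2 ratio of 4.04 (3.64 to 4.47). Its earlier exons gave 563 and 195 reads and a log2 ratio of 1.15 (0.91 to 1.39). Its 5'UTR, with 127 and 66 reads, had a log2 ratio of 0.57 (0.13 to 1.02). The 3 intervals for Eya1 overlapped only between the 5'UTR and the earlier exons. With the last exon left out, a choice made after these counts were seen, the log2 ratio of Eya1 was 1.02 (0.82 to 1.24). This only just passed the 2-fold rule with the main scaling, and the shift of -0.41 with pan-epithelial scaling would put it under.

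**Figure D2:**
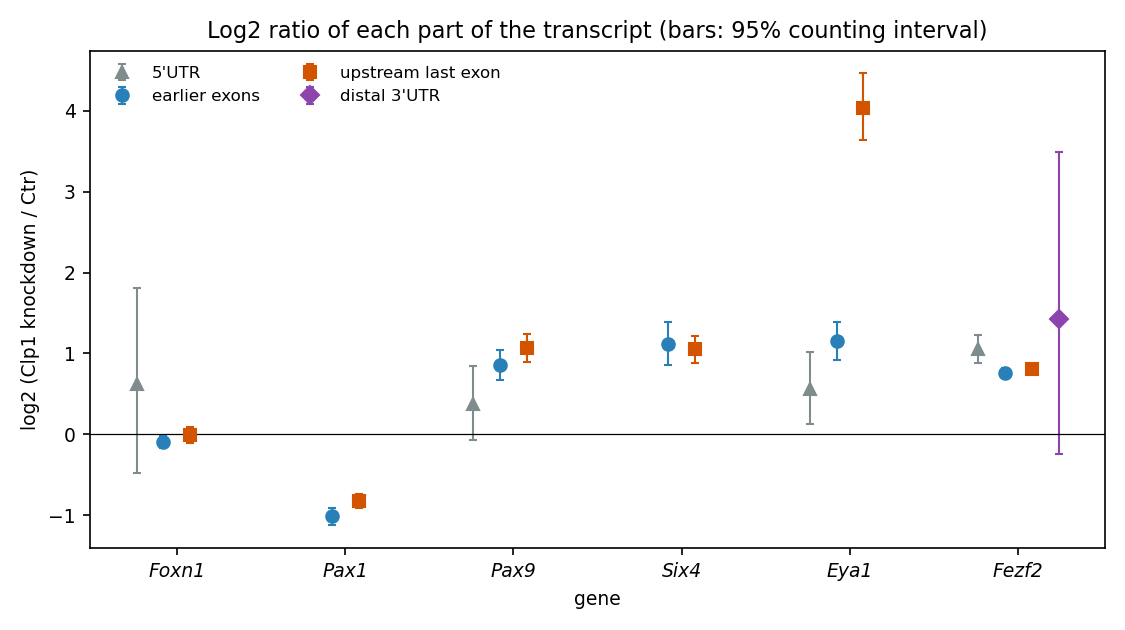
Log2 ratio (Clp1 knockdown over Ctr) of each part of the transcript, with 95% counting intervals. The Eya1 last exon (orange square) stands at 4.04, above its earlier exons (blue circle) at 1.15, whereas both parts lie close together in the other 5 genes; parts with 0 reads in both libraries are not drawn.

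Read density put this in terms of each library. In this comparison the last exon of a gene was counted only up to its proximal site, where such a site is annotated. That of Eya1 has none and was counted whole. The last exon of Eya1 held 1.66 times the density of its earlier exons in knockdown cells, close to the median of 1.47 over 11221 genes with 50 reads in each part. In Ctr cells it held 0.224 times that density, and 4.001% of those genes had a lower ratio, against a median of 1.42. The Ctr library was thus the unusual one for Eya1, with few reads downstream of its earlier exons. The difference between last and earlier exons was 2.88 on the log2 scale (2.42 to 3.34), and 2.44% of genes had one as large. Of all genes, 9.08% had a last exon at least 2-fold higher against the earlier exons in knockdown cells, and 14.7% were 2-fold apart in either direction. In the 5 other members this difference lay between -0.07 for Six4 and 0.21 for Pax9, and none was 2-fold apart. Pax1 was the one of these 5 whose interval excluded 0, at 0.19 (0.05 to 0.32). The 3 hexamers shown above fall in this exon of Eya1, which has no annotated proximal site in the count table, and the counts do not resolve where in the exon the reads lie.

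**Figure D3:**
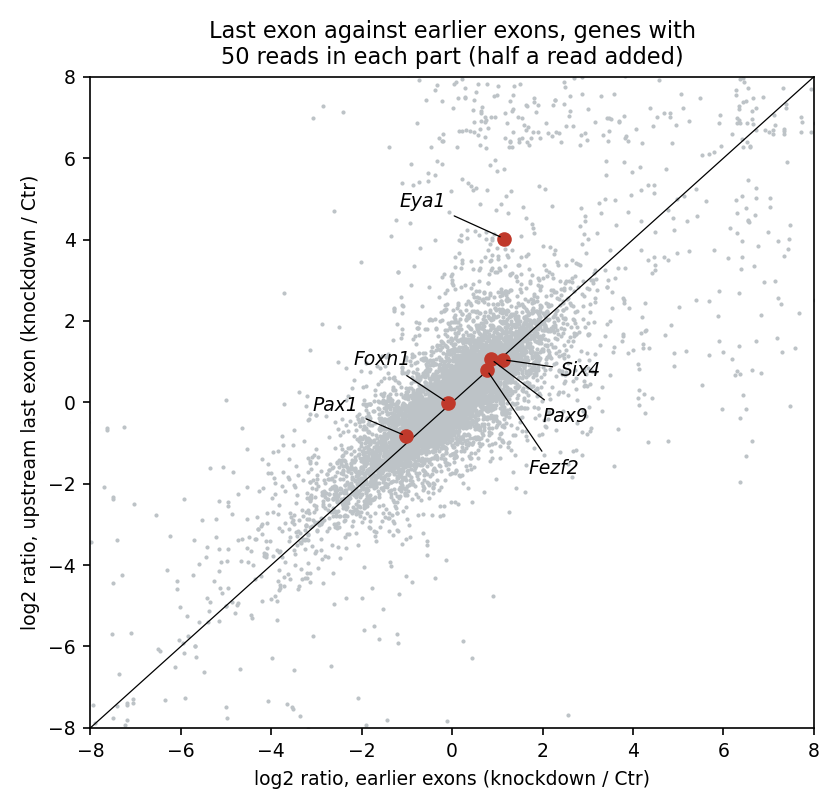
Log2 ratio (Clp1 knockdown over Ctr) of the upstream last exon against that of the earlier exons, 0.5 reads added to each count. Grey points are genes with at least 50 reads in each part, the line marks equal ratios, and points beyond 8 on either axis are outside the frame; Eya1 sits 2.88 above the line and the 5 other members lie along it.

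Fezf2 was the one member for which the d3'UTR ratio, the read density beyond the proximal poly(A) site over that of the upstream last exon, could be computed. Its last exon runs over chr14:13174406-13175272, and the proximal site divides it into 664 bases upstream and 203 bases of distal 3'UTR. The distal part had 14 reads in knockdown and 4 in Ctr cells, next to 7226 and 3186 upstream. The d3'UTR ratio was therefore 0.00634 in knockdown and 0.00411 in Ctr cells, far under the medians of 0.420 and 0.397 over 7507 transcripts. Of those transcripts, 11.7% had a lower ratio in knockdown and 16.2% in Ctr cells. Nearly all Fezf2 reads in both libraries lay before the proximal site, which the AATAAA shown above precedes. The change of the ratio was 0.63 on the log2 scale (-1.05 to 2.69), and a change of this size was not detectable with so few distal reads. The other parts of Fezf2 had log2 ratios of 1.05 (0.89 to 1.23) in the 5'UTR, 0.76 in the earlier exons and 0.80 in the upstream last exon.

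The relatives of the members showed how much of each family the libraries held. The lists below come from general knowledge of these genes and were counted at 10 reads over both libraries, where 22% of 18993 genes were called higher and 19.7% lower, together 41.6%. Of the other Pax genes 5 of 7 reached this minimum and all were scarce. Pax8, a thyroid and kidney factor, rose, with 94 reads in knockdown and 14 in Ctr cells, and 4 fell. Of these, Pax5, the B cell factor, gave 3 and 36 reads and a log2 ratio of -3.96 (-6.31 to -2.30). Pax6, a factor of eye and islet, had 4 and 25, and Pax3, a muscle precursor factor, had 0 and 17, at least 7.37-fold lower against a floor of 3 reads in the knockdown library. Pax4, an islet factor, had 0 and 14 reads, at least 6.07-fold lower. The B cell markers were lower as well, with Ms4a1 at 3 reads in knockdown and 190 in Ctr cells.

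Of the 5 relatives of Six4 measured, only Six6, an eye and hypothalamus factor, was called, with 153 reads in knockdown and 0 in Ctr cells, which puts it at least 39.2-fold up when the Ctr library is set to 3 reads. Its level was low in knockdown cells, at 1.41 RPKM. Six2, a kidney progenitor factor, had 1663 reads in knockdown and 1576 in Ctr cells, or 28.8 and 35.6 RPKM, a log2 ratio of -0.30 (-0.40 to -0.20) that was not called.

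Of the other Eya genes and their Dach corepressors, Eya4 rose and Dach1 fell, while Eya2, Eya3 and Dach2 were not called. Eya4 had 1107 reads in knockdown and 51 in Ctr cells, a log2 ratio of 4.06 (3.66 to 4.50). Dach1, with 48 and 229 reads, had a log2 ratio of -2.63 (-3.11 to -2.18). Eya2 was the leading Eya gene at 67.4 RPKM in knockdown and 54.0 in Ctr cells, 4.35 and 15.6 times the level of Eya1. The pattern of Eya1 along the transcript was also seen in Eya4. The upstream part of its last exon minus its earlier exons was 1.64 (0.19 to 3.10) on the log2 scale. That part had only 4 reads in Ctr cells. The distal 3'UTR of Eya4 had 589 reads in knockdown and 7 in Ctr cells, giving d3'UTR ratios of 0.784 and 0.326. Of 31 genes of the lists of relatives, regulators and targets with enough reads, 4 were 2-fold apart, against 14.7% of all genes. In Dach1, Eya4 and Foxn2 the last exon had the higher ratio, and in Isl1 the lower, at -1.10 (-1.43 to -0.78). Foxn2, a relative of Foxn1, had the largest difference of these at 2.00 (1.49 to 2.51), while its log2 ratio over the whole transcript was 0.49. Foxn4, a forkhead factor of the retina, fell, with 28 reads in knockdown and 367 in Ctr cells. Foxn3 and Fezf1 were not called.

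Of 9 other regulators of pouch and thymus development 4 rose, among them Gcm2, Hoxa3 and Trp63, and none fell (3 rose with pan-epithelial scaling). Gcm2, which specifies the parathyroid, had 113 reads in knockdown and 1 in Ctr cells, a log2 ratio of 6.44 (3.93 to 11.8). Hoxa3, which acts upstream of Pax1 and Pax9 in the pouch, gave 56 and 5 reads and a log2 ratio of 3.11 (1.80 to 4.78). Trp63, which maintains epithelial progenitors, had 6029 reads in knockdown and 1930 in Ctr cells and a log2 ratio of 1.26 (1.19 to 1.34). Tbx1, Gata3, Meis1 and Isl1 were not called, with log2 ratios between -0.59 and 0.76. Of 4 parathyroid markers, of which Gcm2 is itself 1, 3 rose. Besides Gcm2 these were parathyroid hormone (Pth), with 476 reads in knockdown and 106 in Ctr cells, and the calcium receptor Casr, with 105 and 15, whereas Chga, with 1148 and 800, was not called. The summed scaled reads of the 4 were 1616 in knockdown and 1051 in Ctr cells. Of 7 genes listed as immature mTEC markers, 4 rose beside Trp63, among them Krt5, Krt14 and Ccl21a, which has near-identical copies. The median of this list was 1.09. Ackr4, on the same list, fell, and how specific it is to these cells was not tested. Krt5 and Krt14 are also among the 15 pan-epithelial genes, of which 4 rose and none fell, with a median of 0.41. With pan-epithelial scaling 1 of the 7 genes listed as immature mTEC markers rose. The part of either cell state in the levels of the fate factors was not tested.

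Genes known to depend on Foxn1 did not follow its level. Of 7 listed targets 6 fell and none rose, with a median of -1.57, while Foxn1 itself had a log2 ratio of -0.06. Psmb11, the proteasome subunit of cortical epithelium, had 694 reads in knockdown and 3655 in Ctr cells, a log2 ratio of -2.78 (-2.89 to -2.66). Cxcl12, a chemokine for T cell precursors, gave 1435 and 4193 reads and a log2 ratio of -1.93 (-2.01 to -1.84). Dll4, the Notch ligand that commits precursors to the T lineage, gave 520 and 1274 reads and a log2 ratio of -1.67 (-1.82 to -1.52). Cd83, Kitl, which encodes stem cell factor, and Prss16, a thymus protease, had log2 ratios of -1.57, -1.55 and -1.47. Ccl25, another chemokine for precursors, was the exception, with 10607 reads in knockdown and 7693 in Ctr cells and a log2 ratio of 0.08 (0.04 to 0.13). Psmb11, Dll4, Ccl25, Cxcl12 and Prss16 are also on the list of 9 cortical epithelial (cTEC) markers, of which 5 fell and none rose, with summed scaled reads of 41752 in knockdown and 50649 in Ctr cells. Of the cTEC markers that are not listed targets, Ly75 fell, with a log2 ratio of -1.33. Ctsl, Enpep and Tbata were not called, at 0.14, 0.07 and 0.32. Cxcl12 and Kitl are also made by stromal and endothelial cells, whose markers were lower in knockdown cells. The part of these cells in the fall of the targets was not tested.

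The promoters of these targets were searched for GACGC, the core sequence that Foxn1 is known to bind, on both strands (GCGTC on the reverse), within 250 bases before to 50 after the RefSeq start (GRCm38.p6). A match occurred in 4 of the 5 targets with a promoter sequence (Psmb11, Ccl25, Cxcl12 and Kitl), and in 2 of 5 members (Pax1 and Fezf2), against 29.6% of 27025 genes. Matches in Psmb11, the target that fell most, in Ccl25, which was not called, and in Pax1 and Fezf2 are shown with the motif in capitals. They lie at chr14:54625061-54625085 and chr14:54625238-54625262 for Psmb11, chr8:4325144-4325168 and chr8:4325212-4325236 for Ccl25, and chr2:147364898-147364922 for Pax1, all on the plus strand, and chr14:12346030-12346054 on the minus strand for Fezf2.
Psmb11 match 1: ctgacaggtgGCGTCttcagagtgt
Psmb11 match 2: cttctccacaGCGTCctcctcctcc
Ccl25 match 1: ttgaagaagcGACGCtcattggttg
Ccl25 match 2: cttcctgtcgGCGTCgtccgcggtg
Pax1 match: cggggaggggGACGCcaggctcggt
Fezf2 match: ttgaggtagcGCGTCggggacaccc
Both Psmb11 and Ccl25 thus carried 2 matches, although one fell and the other was not called. A match of this length is a description of these letters and does not show binding.

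Genes tied to Fezf2 did not follow its level as one group. The list held Chd4, a chromatin remodeller that partners Fezf2, and 7 antigen genes. Of the 8 genes 1 rose and 3 fell (0 and 5 with pan-epithelial scaling), with a median of -0.87, while Fezf2 had a log2 ratio of 0.80. Resp18, a neuroendocrine protein, rose, with 3088 reads in knockdown and 932 in Ctr cells. Calb1, a calcium-binding protein, fell, with 259 and 917 reads and a log2 ratio of -2.20. Ttr, the transthyretin of plasma, had 130 and 249 reads, and Apoc3, an apolipoprotein, had 337 and 555, with log2 ratios of -1.32 and -1.10. The paper uses Ttr as an example of an Aire-sensitive gene, so it is not tied to Fezf2 alone. Chd4, Fabp9, Krt10 and Maoa were not called, at log2 ratios of -0.92, -0.81, 0.77 and 0.80.

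**Figure D4:**
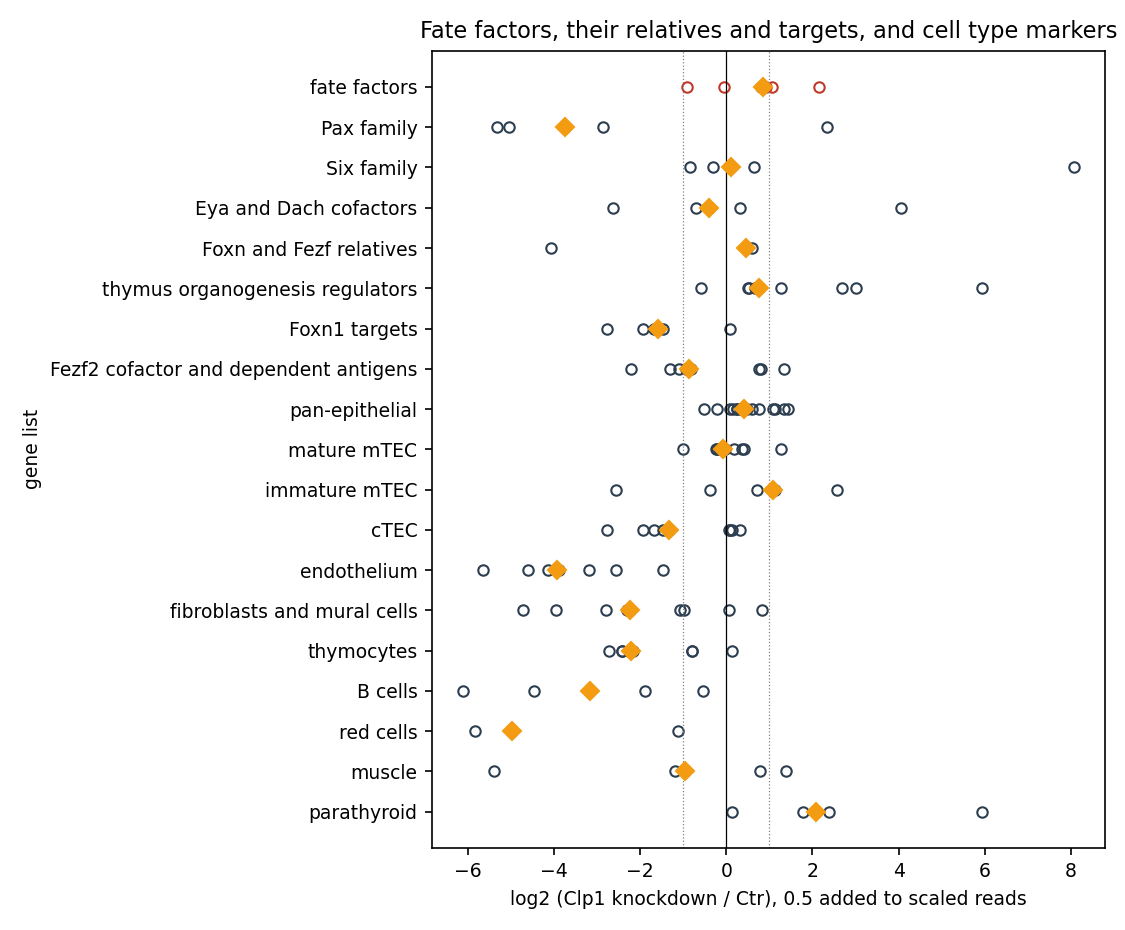
Log2 ratio (Clp1 knockdown over Ctr) of each gene with at least 10 reads (circles) and the median of each list (orange diamonds), with 0.5 added to scaled reads; dotted lines mark 2-fold. The fate factors (red circles, top row) lie between -0.91 and 2.16, the Foxn1 targets have a median of -1.57, and the medians of the red cell and endothelial markers lie farthest to the left.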

How the data were processed

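The submitters' processing notes name Bowtie 1.0.0, bedtools, DESeq and the mm9 build. According to the paper, libraries from lentigenic mice used a low-input kit (Smarter Ultra Low Input) with Nextera library preparation. How this protocol affected the counts along a transcript was not tested. The authors deposited raw counts of reads within the exons of 30794 RefSeq transcripts, and the same counts per transcript part with part lengths. The deposited DESeq table (normalized means, fold changes, p-values) was not used. The sources do not state whether the counting was stranded. Symbols (30216 transcripts) and promoters came from RefSeq (GRCm38.p6), exons from GENCODE vM1 (NCBIM37). Promoters of Eya1, Cd83 and Prss16 were not used here.

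Size factors (median of ratios) were 1.14 for Clp1 knockdown and 0.877 for Ctr. Ratios carry Clopper-Pearson 95% intervals, which cover counting error only, as PCR copies of a molecule were not identified. A call needed 50 reads (10 in lists), a 2-fold ratio and an interval excluding 0. A zero was set to a floor of 3 reads in that library. List medians used 0.5 added to scaled reads. RPKM were computed here from the counts and transcript lengths, with depth taken over the transcripts that stand for genes. Last and earlier exons were compared with 0.5 reads added and the interval of a log odds ratio, and the d3'UTR ratio with the conditional exact interval. For the former, the last exon was taken up to the proximal site where annotated.

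All 6 members were described, and from 7 lists of relatives, cofactors, regulators and targets up to 6 called genes per list, largest ratio first. Uncalled members and markers were named to complete a list. Some listed genes are not reported here by name, and the list counts include them. Members and lists were chosen with earlier results of these data known. Scripts (Python 3.11.15, numpy 2.4.6, pandas 2.3.3, scipy 1.17.1, matplotlib 3.10.9, R 4.3.3, edgeR 4.0.16) were tested on simulated counts. Alternatives were TMM, total-count and pan-epithelial scaling, a GC correction, thinning, other read minimums and other parts of the transcript.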

Additional observations from a re-analysis of the deposited data

How the results depend on the processing

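The 6 levels moved by less than their counting error with TMM or total-count scaling, with the knockdown library thinned to the Ctr total and, for Eya1, with its second transcript. With pan-epithelial scaling the log2 ratios were -0.47 for Foxn1, -1.32 for Pax1, which then passed the 2-fold rule, 0.51 for Pax9, 0.66 for Six4, which no longer did, 1.75 for Eya1 and 0.39 for Fezf2, and 4707 genes were called lower. With the GC trend subtracted (range -0.57 to 0.59, GC known for 82.8% of genes tested) they were 0.32 for Foxn1, -0.54 for Pax1, 0.61 for Pax9, 0.83 for Six4, 1.87 for Eya1 and 1.01 for Fezf2. On the last exon alone, Pax1 had -0.83, Pax9 1.07, which then passed the rule, and Eya1 4.04. Without the last exon, a choice made after seeing the data, they had -1.02, which passed the rule, 0.79 and 1.02. Alternatives for the d3'UTR ratio of Fezf2 and for the comparison of last and earlier exons changed no call. Of 54 counts and medians of the other lists, 22 moved with pan-epithelial scaling, 9 with the GC correction, 2 each with thinning, with a lower and with a higher read minimum, and 0 with TMM or total counts. No paired analysis was possible because each group has 1 library, and for the same reason no replicate could be left out. Levels of genes with few reads, such as the distal 3'UTR of Fezf2 or the upstream last exon of Eya4 in Ctr cells, are limited by depth.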
